A study of Mus musculus with 12 samples.

Results

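The 10 genes described here encode the contractile apparatus of smooth muscle, which liver myofibroblasts also assemble: Acta2, Actg2, Myh11, Myl9, Tpm1, Tpm2, Cald1, Cnn1, Cnn2 and Tagln. They were taken by name from a count table of 36528 mouse gene IDs, in which all 10 were found. RNA had been sequenced from whole liver of 12 mice. Of these, 6 were injected with carbon tetrachloride (CCl4), a solvent whose breakdown in hepatocytes injures the liver, and 6 with its corn oil vehicle, in both groups into the peritoneum for 6 weeks at 3 injections per week. The sources used here name no strain, sex or age. Whole liver holds hepatocytes, stellate cells, portal fibroblasts, vessel walls and bile ducts together, so more cells of a type and more RNA per cell cannot be told apart.

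In smooth muscle, actin filaments slide along myosin. Myosin is switched on when its regulatory light chain is phosphorylated. Tropomyosin, caldesmon and calponin sit on the actin filament, where caldesmon and calponin restrain the interaction. When the liver is injured repeatedly, stellate cells and portal fibroblasts turn into myofibroblasts, which lay down collagen and contract. Acta2 is the customary marker of that change, whereas Myh11 and Cnn1 are customary markers of fully differentiated smooth muscle such as that of vessel walls. Many of these genes are driven by serum response factor (Srf), which binds the CArG box.

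Promoter windows of 7 of the 10 genes, all but Tagln, Myh11 and Actg2, were in the RefSeq table for GRCm38.p6. They were searched because Srf acts through the CArG box. The 170 bases before the start used in that table are printed 5' to 3' on the gene's own strand. Of the printed windows, only that of Cnn2 ends where the gene span given below begins. Those of Acta2 and Tpm1 lie within their gene spans, and those of Myl9 and Cnn1 run into theirs. Positions therefore hold for the starts of that table only. They are given for 4 of the genes with a match and for Cnn1, which has none. Cald1, with a match, and Tpm2, without one, are left out. Capitals mark a CArG box with 0 or 1 mismatch, and positions count back from the start, with -1 the base just before it. The windows were chr19:34255374-34255543 (minus strand), chr2:156775294-156775463 (plus strand), chr10:79988430-79988599 (plus strand), chr9:67049214-67049383 (minus strand) and chr9:22099083-22099252 (plus strand).
Acta2: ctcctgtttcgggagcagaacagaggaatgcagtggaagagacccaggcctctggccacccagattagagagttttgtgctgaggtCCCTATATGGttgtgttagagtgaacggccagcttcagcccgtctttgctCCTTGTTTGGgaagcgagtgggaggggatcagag
Myl9: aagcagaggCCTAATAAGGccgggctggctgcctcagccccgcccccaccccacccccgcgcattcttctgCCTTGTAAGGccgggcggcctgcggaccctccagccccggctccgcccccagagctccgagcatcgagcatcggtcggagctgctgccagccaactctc
Cnn2: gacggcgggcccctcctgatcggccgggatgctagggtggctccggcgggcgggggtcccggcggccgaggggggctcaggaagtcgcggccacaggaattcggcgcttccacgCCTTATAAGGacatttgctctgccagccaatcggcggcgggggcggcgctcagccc
Tpm1: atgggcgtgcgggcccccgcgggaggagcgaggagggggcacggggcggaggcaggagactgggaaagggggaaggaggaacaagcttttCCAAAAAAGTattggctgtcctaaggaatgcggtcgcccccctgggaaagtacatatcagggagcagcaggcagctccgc
Cnn1: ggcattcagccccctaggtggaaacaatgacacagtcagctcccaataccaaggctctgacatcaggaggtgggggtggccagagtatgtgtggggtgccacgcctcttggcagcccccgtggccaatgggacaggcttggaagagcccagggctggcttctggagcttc

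An exact CArG box stood at -161 to -152 of Myl9 and at -56 to -47 of Cnn2. In the 250 bases before the start, 2 of the 7 genes (2 of their 8 windows) held one, against 1.47% of all 32851 promoter windows. With up to 1 mismatch, 5 of the 7 genes (5 of their 8 windows) held a match, against 18.6% of all windows. Acta2 had 2 such matches, at -84 to -75 and at -34 to -25, and Tpm1 had 2, at -221 to -212 and at -80 to -71. Cald1, which did not pass the test described below, had 1, at -203 to -194. Neither Cnn1 nor Tpm2 had a match, although Tpm2 rose. Whether a match goes with a rise was not tested. The letters CATTCC, the core of the MCAT element that Tead factors bind, were searched on both strands. They stood in 3 of the 7 genes (Acta2, Tpm1 and Cald1), or 3 of their 8 windows, against 12.6% of all windows. A match describes the letters of a window only. Tpm1 and Cald1 have further start sites, and Cald1 has a second window in the table, which held no match.

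Most of the contractile genes were higher after CCl4, but not all, and the customary marker Acta2 and its companion Tagln stood far apart from Myh11 and Cnn1. With edgeR's quasi-likelihood test, Acta2, Tagln, Myl9, Cnn2, Tpm1 and Tpm2 rose, none fell (Cnn1 was the only one with a negative log2 fold change, at an unadjusted p of 0.80), and Cald1, Myh11, Actg2 and Cnn1 did not pass an adjusted p of 0.05. All 10 genes passed the filter on low counts and were tested among 16032 genes. The background was broad: 39% of tested genes passed in either direction, 20.6% as rises and 18.4% as falls. The median log2 fold change was 1.15 over the 10 genes, or 0.89 without CCl4 replicate 1, and 0.01 over all tested genes. In 5 of the 10 genes (Acta2, Tagln, Myl9, Cnn2 and Tpm1) every CCl4 liver lay above every oil liver, which held for 12% of tested genes. Rises made up 52.8% of all calls with TMM scaling and 67.3% when libraries were scaled by their upper quartile, which moved the median of all genes to 0.13.

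**Figure D1:**
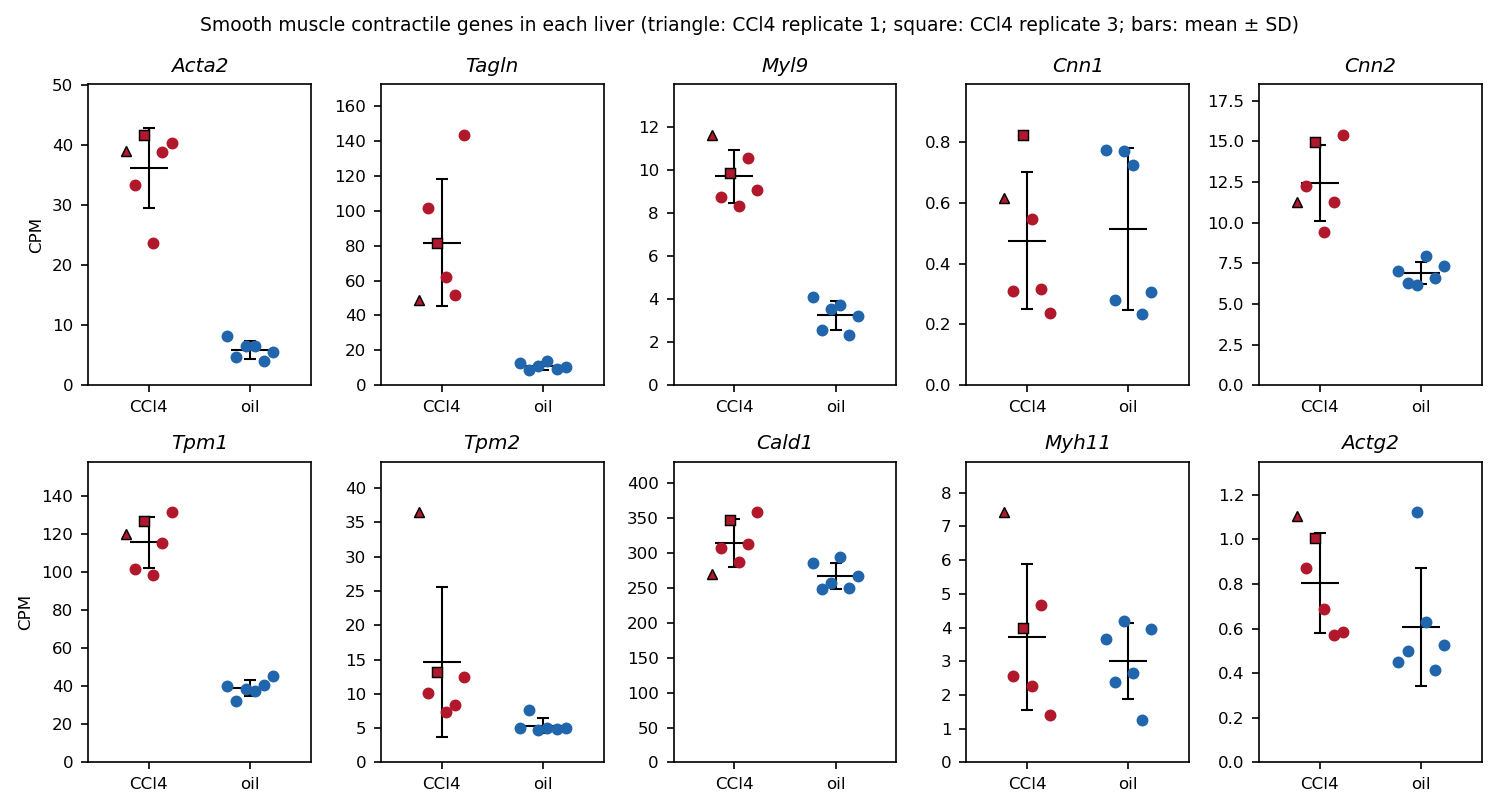
Counts scaled to 1000000 per library (CPM, TMM scaled) of the 10 genes in each liver, with CCl4 livers on the left and oil livers on the right of each panel and bars for mean ± SD (n = 6 each). Acta2 ranged from 23.8 to 41.8 CPM in CCl4 livers and from 3.98 to 8.20 CPM in oil livers, while the groups overlap for Cnn1, Tpm2, Cald1, Myh11 and Actg2; the triangle marks CCl4 replicate 1, which held skeletal muscle transcripts.

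The libraries held 43027778 to 70375852 counts; CPM are counts scaled by TMM to a library total of 1000000. Hepatocyte transcripts dominated, with Alb at 77063 ± 15611 CPM in CCl4 livers and 78023 CPM on average in oil livers. CCl4 replicate 1 stood apart in its skeletal muscle transcripts: the 25 genes of that list summed to 553 CPM there and to 106 CPM in CCl4 replicate 3, against 9.73 to 12.5 CPM in the other 4 CCl4 livers and 11.9 to 20.9 CPM in the oil livers. All 25 genes were highest in CCl4 replicate 1, led by Acta1 at 101 CPM, Atp2a1 at 68.3 CPM and Tnnt3 at 44.2 CPM. In oil livers most of the sum was Neb, nebulin, at 8.25 to 16.3 CPM. Of the list, 8 genes passed the filter on low counts, some through the CCl4 livers alone, so no count of rises is given.

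Among the actins, Acta2, the smooth muscle alpha actin (chr19:34240336-34255585, GRCm38), had a lowest, median and highest level of 23.8, 38.9 and 41.8 CPM in CCl4 livers, against 3.98, 6.00 and 8.20 CPM in oil livers. The groups were far apart, and the lowest CCl4 liver, replicate 4, was still well above the highest oil liver. The means were 36.2 ± 6.72 CPM in CCl4 livers and 5.90 ± 1.5 CPM in oil livers (SD, n = 6 each). This was a 6.13-fold rise, a log2 fold change of 2.62 ± 0.19 (SE; 95% interval 2.20 to 3.03; edgeR adjusted p = 4.75e-07). Of all tested genes, 1.76% had a larger log2 fold change. CCl4 replicates 1 and 3, with the skeletal muscle transcripts, had 39.0 and 41.8 CPM of Acta2, against 40.4 CPM in CCl4 replicate 6, which had few.

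Actg2, the gamma actin of visceral smooth muscle (chr6:83512909-83536251), was near the lower limit of these libraries, with 16 to 84 counts per liver. Its lowest, median and highest levels were 0.570, 0.781 and 1.10 CPM in CCl4 livers, against 0.416, 0.512 and 1.12 CPM in oil livers. The groups overlapped, and oil replicate 3 held the highest value of all 12 livers. The log2 fold change was 0.41 ± 0.28 (SE; 95% interval -0.19 to 1.01; edgeR adjusted p = 0.255), or 0.67 without oil replicate 3 (edgeR adjusted p = 0.0525). With all livers a rise as large as that of Acta2 lay outside the interval.

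Tagln encodes transgelin, a calponin-related actin-binding protein (chr9:45929628-45936058), and had the largest fitted difference of the 10 genes, except with the length slope described below, where Acta2 had 2.76 and Tagln 2.47. Its lowest, median and highest levels were 49.0, 71.8 and 144 CPM in CCl4 livers, against 8.42, 10.9 and 14.0 CPM in oil livers. The groups did not overlap, but the CCl4 livers were widely spread, from replicate 1 at the bottom to replicate 6 at the top. Means were 81.6 ± 36.4 CPM in CCl4 livers and 11.0 ± 2.07 CPM in oil livers (SD, n = 6 each), a 7.41-fold rise with a log2 fold change of 2.89 ± 0.26 (SE; 95% interval 2.32 to 3.46; edgeR adjusted p = 2.30e-06). Its span overlaps that of Pcsk7, a convertase gene, and reads in the overlap may have been shared. Pcsk7 itself fell, to 24.7 ± 3.48 CPM in CCl4 livers, against 34.1 ± 3.56 CPM in oil livers (log2 fold change -0.46 ± 0.12, SE; edgeR adjusted p = 0.00837).

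The calponins, which restrain the actin-activated ATPase of myosin, split. Cnn2, the more widely expressed form (chr10:79988600-79995400), had a lowest, median and highest level of 9.42, 11.8 and 15.4 CPM in CCl4 livers, against 6.16, 6.82 and 7.93 CPM in oil livers. The groups did not overlap, with means of 12.4 ± 2.32 CPM in CCl4 livers and 6.90 ± 0.674 CPM in oil livers (SD, n = 6 each). The rise was 1.80-fold (log2 fold change 0.85 ± 0.14, SE; 95% interval 0.55 to 1.15; edgeR adjusted p = 0.000298).

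Cnn1, the form of differentiated smooth muscle (chr9:22099221-22109221), was the scarcest of the 10 genes, with 9 to 69 counts per liver. It had a lowest, median and highest level of 0.238, 0.433 and 0.826 CPM in CCl4 livers, against 0.234, 0.517 and 0.775 CPM in oil livers, so the groups covered almost the same range. The log2 fold change was -0.10 ± 0.39 (SE; 95% interval -0.94 to 0.74; edgeR adjusted p = 0.854). The interval lies below that of Acta2 but overlaps that of Cnn2, and it still allows a change of moderate size in either direction. Whether Cnn1 and Cnn2 differ in their change was not tested. The sign was not stable: it was 0.02 with upper-quartile scaling and 0.26 with the length slope described below.

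Of the tropomyosins, the coiled coils that lie along the actin filament, Tpm1 (chr9:67022590-67049672) was both abundant and uniform. Its lowest, median and highest levels were 98.5, 118 and 132 CPM in CCl4 livers, against 32.3, 39.4 and 45.3 CPM in oil livers. The ranges were far from touching. Means were 116 ± 13.4 CPM in CCl4 livers and 39.1 ± 4.30 CPM in oil livers (SD, n = 6 each), a 2.96-fold rise with a log2 fold change of 1.56 ± 0.12 (SE; 95% interval 1.31 to 1.82; edgeR adjusted p = 5.12e-07). Without CCl4 replicate 1 its CCl4 mean was 115 ± 14.7 CPM (SD, n = 5).

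Tpm2 (chr4:43513726-43523583), which skeletal muscle also expresses, was the gene that CCl4 replicate 1 moved most. Its lowest, median and highest levels were 7.35, 11.3 and 36.5 CPM in CCl4 livers, against 4.71, 5.02 and 7.62 CPM in oil livers. The 36.5 CPM were in CCl4 replicate 1, and the next CCl4 liver, replicate 3, had 13.2 CPM. Only the lowest CCl4 liver, replicate 4, lay below the highest oil liver, replicate 2. With all livers the log2 fold change was 1.45 ± 0.35 (SE; 95% interval 0.71 to 2.19; edgeR adjusted p = 0.00461). Without CCl4 replicate 1 it was 0.92 (edgeR adjusted p = 0.00180), with means of 10.3 ± 2.52 CPM in CCl4 livers (SD, n = 5) and 5.38 CPM in oil livers. Without CCl4 replicates 1 and 3 it was 0.83 (edgeR adjusted p = 0.00528), so the rise was smaller but still past the threshold.

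**Figure D2:**
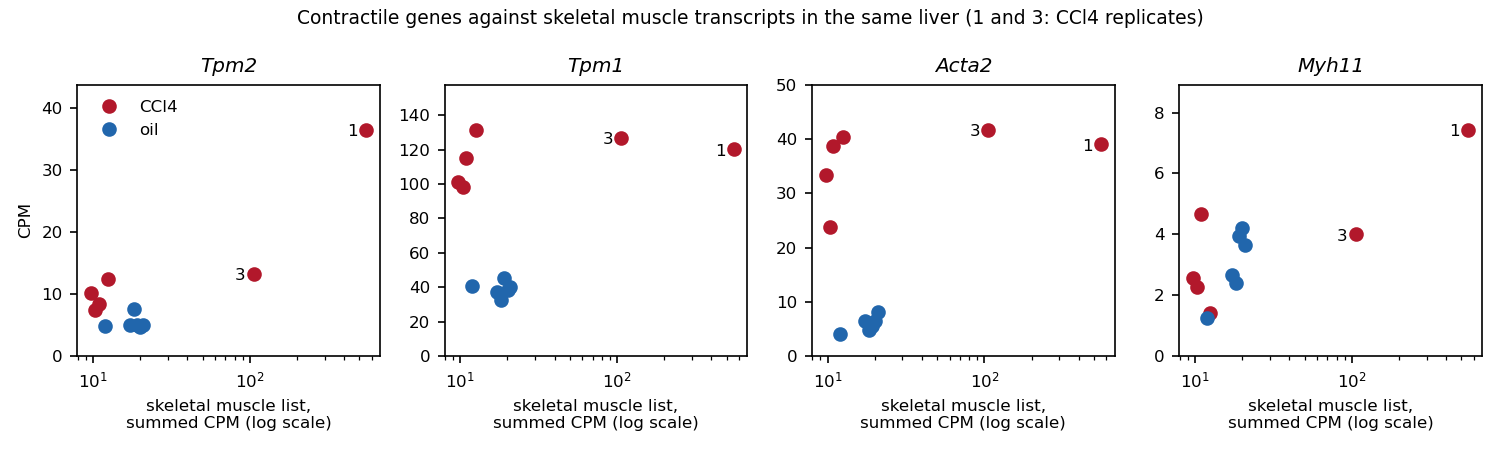
CPM of Tpm2, Tpm1, Acta2 and Myh11 in each liver against the summed CPM of the 25 skeletal muscle genes in the same liver (log scale). CCl4 replicate 1, at 553 CPM of muscle transcripts, has 36.5 CPM of Tpm2 and the highest Myh11, but its Acta2 and Tpm1 lie among those of the other CCl4 livers.

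Cald1, caldesmon (chr6:34598495-34775469), which restrains myosin on the actin filament, was the most abundant of the 10 genes in both groups and differed little between them. Counts are per gene and do not tell its isoforms apart. Its lowest, median and highest levels were 270, 310 and 359 CPM in CCl4 livers, against 248, 263 and 294 CPM in oil livers. The ranges overlapped, and CCl4 replicate 1 was the lowest CCl4 liver. Means were 314 ± 34.3 CPM in CCl4 livers and 267 ± 19.0 CPM in oil livers (SD, n = 6 each), with a log2 fold change of 0.23 ± 0.11 (SE; 95% interval 0.00 to 0.46; edgeR adjusted p = 0.102). With upper-quartile scaling the value was 0.35 and passed (edgeR adjusted p = 0.0223), but the median of all genes then stood at 0.13.

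Of the myosin subunits, Myl9, the smooth muscle regulatory light chain whose phosphorylation starts contraction (chr2:156775408-156781657), had a lowest, median and highest level of 8.34, 9.47 and 11.6 CPM in CCl4 livers, against 2.31, 3.37 and 4.10 CPM in oil livers. The lowest CCl4 liver lay well above the highest oil liver. Means were 9.70 ± 1.23 CPM in CCl4 livers and 3.24 ± 0.690 CPM in oil livers (SD, n = 6 each), a 2.99-fold rise (log2 fold change 1.58 ± 0.16, SE; 95% interval 1.24 to 1.93; edgeR adjusted p = 5.28e-06).

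Myh11, the smooth muscle myosin heavy chain (chr16:14194527-14292188), showed no such gap. Its lowest, median and highest levels were 1.41, 3.28 and 7.43 CPM in CCl4 livers, against 1.25, 3.15 and 4.19 CPM in oil livers. The highest value was again in CCl4 replicate 1, while the lowest CCl4 liver, replicate 6, lay between the lowest oil liver and the other 5. The log2 fold change was 0.30 ± 0.37 (SE; 95% interval -0.49 to 1.10; edgeR adjusted p = 0.532) with all livers and -0.05 without CCl4 replicate 1 (edgeR adjusted p = 0.922).

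The call on Myh11 depended on how transcript length was treated. Myh11 has the longest transcript of the 10 genes, at 6450 bases, against 1128 bases for Myl9. The libraries differed in how log2 CPM changed with the log2 of transcript length: this slope, taken relative to the mean library, was 0.12, -0.26, -0.02, -0.21, 0.17 and -0.40 in CCl4 replicates 1 to 6, against 0.17, 0.06, 0.16, 0.10, -0.16 and 0.26 in oil replicates 1 to 6. Myh11 was lowest where the slope was lowest in each group, with 1.41 CPM in CCl4 replicate 6 and 1.25 CPM in oil replicate 5. Once the slope entered the fit, the log2 fold change of Myh11 was 0.97 and passed (edgeR adjusted p = 0.000536), as did Myh9 and Myh10, the heavy chains of non-muscle myosin. The other 9 genes kept their calls in that fit, with 2.76 for Acta2, 2.47 for Tagln, 1.76 for Myl9 and 1.59 for Tpm1.

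**Figure D3:**
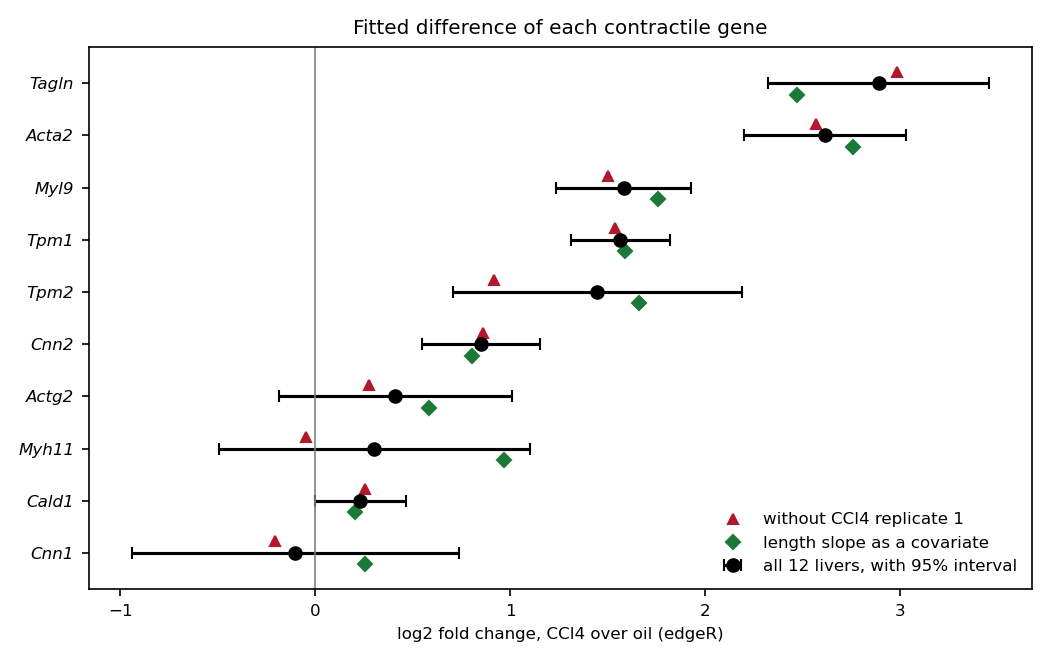
Log2 fold change of CCl4 over oil for each gene (edgeR), with the 95% interval for all 12 livers (black), and the value without CCl4 replicate 1 (triangles) and the value with each library's length slope in the fit (diamonds). Tpm2 moves from 1.45 to 0.92 without CCl4 replicate 1, and Myh11 from 0.30 to 0.97 with the length slope.

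Ordered by level per kilobase of transcript (CPM per kb), the CCl4 livers ran from Cald1 at 77.0 ± 8.40, Tpm1 at 70.4 ± 8.15 and Tagln at 51.2 ± 22.8 through Acta2 at 17.8 ± 3.30 to Myl9 at 8.60 ± 1.09, Cnn2 at 7.35 ± 1.37 and Tpm2 at 7.0 ± 5.21 (SD, n = 6). Actg2 at 0.617 ± 0.172, Myh11 at 0.577 ± 0.337 and Cnn1 at 0.264 ± 0.126 CPM per kb were last. In oil livers the order was Cald1 at 65.5 ± 4.66, Tpm1 at 23.8 ± 2.62, Tagln at 6.90 ± 1.30, Cnn2 at 4.07 ± 0.398, Acta2 at 2.90 ± 0.736, Myl9 at 2.87 ± 0.612 and Tpm2 at 2.56 ± 0.528 CPM per kb. Myh11 at 0.467 ± 0.174, Actg2 at 0.466 ± 0.202 and Cnn1 at 0.286 ± 0.148 CPM per kb came last there too. Neighbours whose SDs overlap were Cald1, Tpm1 and Tagln, then Myl9, Cnn2 and Tpm2, and then Actg2, Myh11 and Cnn1 in CCl4 livers. In oil livers they were Acta2, Myl9 and Tpm2, and then Myh11, Actg2 and Cnn1. Acta2 thus stood above Cnn2 in CCl4 livers and below it in oil livers. Lengths are medians over annotated transcripts, so levels of Tpm1, Cald1 and other genes with many isoforms are approximate.

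Set against their relatives in the same liver, the members counted as smooth muscle genes took a larger share of the actins, tropomyosins and regulatory light chains after CCl4. No scaling of libraries can alter such a share. Counts are per gene, so the share of Tpm1 and Tpm2 covers all their isoforms, which were not told apart. Acta2 and Actg2 together made up 3.24 ± 0.900% of actin counts per kb in CCl4 livers and 0.778 ± 0.248% in oil livers (SD, n = 6 each; exact two-sided permutation p = 0.00216, the smallest that 6 against 6 allows; adjusted over 5 families p = 0.00361). Actb, the cytoplasmic beta actin, held 94.1 ± 5.12% in CCl4 livers and 98.0 ± 0.614% in oil livers. Actg1, the cytoplasmic gamma actin, held 0.195 ± 0.138% in CCl4 livers and 1.15 ± 0.504% in oil livers. Close copies in the genome may share its reads, so the actin shares are those of the reads as counted. Acta1, the skeletal muscle actin, reached 12.1% in CCl4 replicate 1, and without that liver the gain of the smooth muscle actins was 2.42 percentage points, against 2.46 with it.

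Tpm1 and Tpm2 held 68.0 ± 2.98% of tropomyosin counts per kb in CCl4 livers and 55.2 ± 2.33% in oil livers (SD, n = 6 each; exact two-sided permutation p = 0.00216, adjusted p = 0.00361). Tpm1 accounted for most of this, with 62.0 ± 2.29% in CCl4 livers and 49.8 ± 3.28% in oil livers, while Tpm3, a form found in most cells, held 17.9 ± 2.06% in CCl4 livers and 28.2 ± 3.14% in oil livers. All 4 tropomyosin genes rose, so the share of Tpm3 was smaller although its own level was 1.5-fold higher. Myl9 held 7.0 ± 1.27% of the regulatory light chain counts per kb in CCl4 livers and 3.77 ± 0.953% in oil livers (SD, n = 6 each; exact two-sided permutation p = 0.00216, adjusted p = 0.00361). Its relatives Myl12a and Myl12b rose too, 1.59-fold and 1.53-fold, against 2.99-fold for Myl9.

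For the customary markers of differentiated smooth muscle no gain in share passed the test. Myh11 held 2.73 ± 0.662% of the heavy chain counts per kb in CCl4 livers and 2.45 ± 0.724% in oil livers (SD, n = 6 each; exact two-sided permutation p = 0.481, adjusted p = 0.601). Its partners Myh9 and Myh10 are also long transcripts, so this share sets genes of like length side by side. Cnn1 held 0.451 ± 0.251% of calponin counts per kb in CCl4 livers and 0.470 ± 0.222% in oil livers (SD, n = 6 each; exact two-sided permutation p = 0.896, adjusted p = 0.896). Cnn2, by contrast, held 12.2 ± 2.74% in CCl4 livers and 6.88 ± 0.811% in oil livers, with all CCl4 livers above all oil livers, and Cnn3, the acidic calponin, held the rest. That share of Cnn2 was not among the 5 tested.

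**Figure D4:**
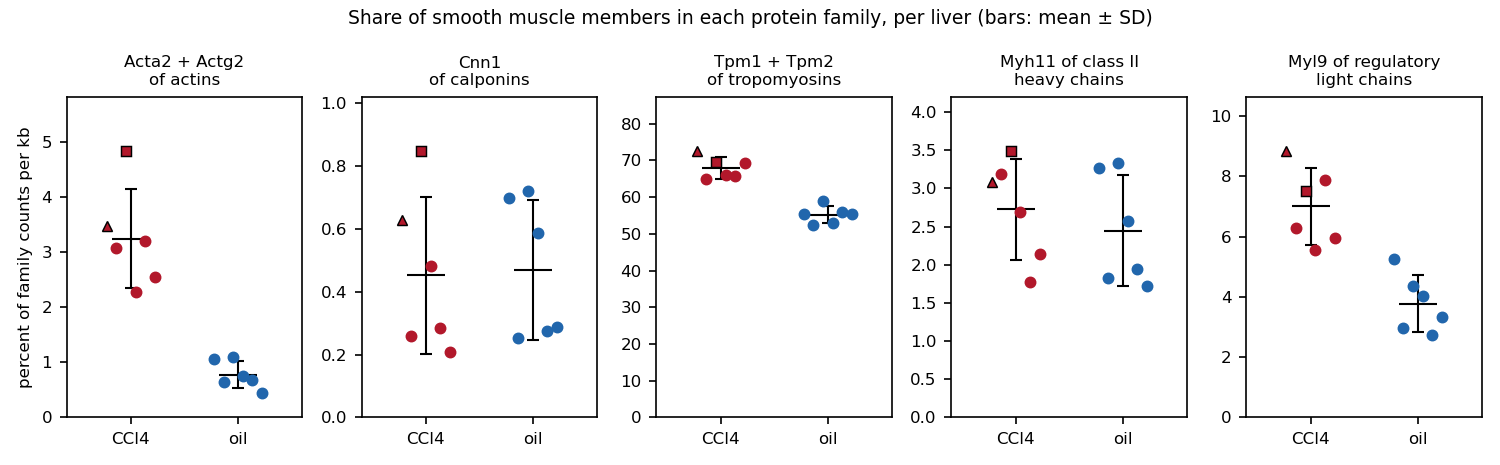
Share of each family's counts per kb held by its smooth muscle members in each liver, with CCl4 livers on the left and oil livers on the right and bars for mean ± SD (n = 6 each). The groups are separate for actins, tropomyosins and regulatory light chains and overlap for calponins (Cnn1) and heavy chains (Myh11).

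Whether each gene moved by another amount than Myh11 was tested as the log2 ratio of its counts to Myh11 counts within a liver. All 9 ratios share the Myh11 counts, 48 to 471 per liver. They come from the same livers as the edgeR results and are no independent test of them. Differences among the other genes were not tested. The ratio of Acta2 was 3.45 ± 0.80 in CCl4 livers and 1.02 ± 0.42 in oil livers, a difference of 2.42 (SD, n = 6 each; exact two-sided permutation, adjusted over 9 ratios p = 0.0130), with all CCl4 livers above all oil livers. The differences of Tagln, 2.60, Myl9, 1.39, and Tpm1, 1.36, also passed (exact permutation, adjusted p = 0.0130, 0.0130 and 0.0244). Tpm2 at 1.03 and Cnn2 at 0.63 did not pass (exact permutation, adjusted p = 0.0662 and 0.315), and neither did Actg2 at 0.20, Cald1 at 0.03 and Cnn1 at -0.31 (exact permutation, adjusted p = 0.655, 0.957 and 0.543). CCl4 replicate 6, with the lowest length slope, had the highest ratio of all 12 livers for 8 of the 9 genes. The part of the length slope in these differences was not tested.

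**Figure D5:**
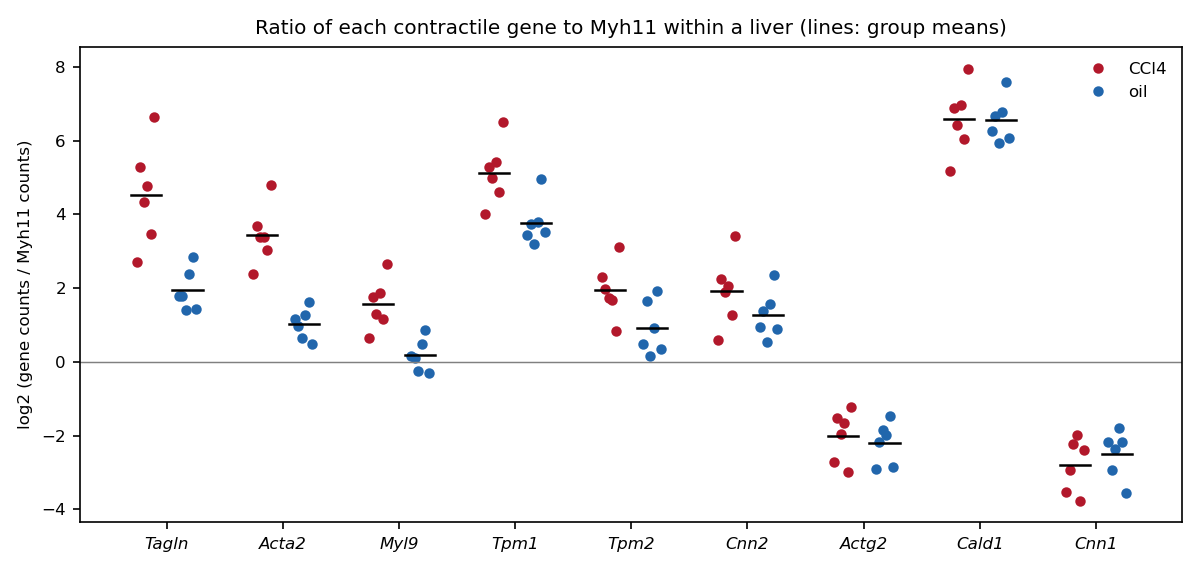
Log2 ratio of each gene's counts to Myh11 counts within each liver, with CCl4 livers left of oil livers and lines for group means (n = 6 each). Acta2 averages 3.45 in CCl4 livers and 1.02 in oil livers, and it is the only 1 of the 9 genes whose groups do not overlap.

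Over the 12 livers, as deviations of log2 CPM from each gene's own mean, the genes closest to Acta2 were C1qtnf6, Ccdc80, Nid1, Gpr137b and Fkbp10, at root mean square differences of 0.23, 0.26, 0.26, 0.28 and 0.29. Ccdc80, a secreted matrix-associated protein, averaged 55.8 ± 6.26 CPM in CCl4 livers and 9.82 ± 1.46 CPM in oil livers, and Nid1, a basement membrane protein, 88.2 ± 33.7 CPM in CCl4 livers and 13.9 ± 3.12 CPM in oil livers (SD, n = 6 each). These genes were picked as the closest of all tested genes, and none of the other 9 contractile genes was among them. Tagln stood at 0.44, Myl9 at 0.54 and Tpm1 at 0.60, and Myh11 at 1.34 and Cnn1 at 1.46 were farthest. The measure includes the difference between the groups. The closest genes had log2 fold changes from 2.28 (Gpr137b) to 2.67 (Nid1), against 2.62 for Acta2. Tagln had 2.89, Myl9 1.58 and Tpm1 1.56. Likeness to Acta2 from liver to liver within a group was not tested.

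Of 9 tested regulators of smooth muscle genes 2 rose, 1 fell and 6 did not pass, shares near the 20.6% and 18.4% of all tested genes. The median log2 fold change was 0.16, and with the length slope 4 rose and 1 fell. Fhl2, a cofactor of Srf, rose to 4.01 ± 0.736 CPM in CCl4 livers, against 0.482 ± 0.212 CPM in oil livers (SD, n = 6 each; 8.21-fold; edgeR adjusted p = 1.19e-06). Csrp1, a LIM protein that bridges Srf and GATA factors, rose to 50.4 ± 15.7 CPM in CCl4 livers, against 13.5 ± 1.47 CPM in oil livers (3.73-fold; edgeR adjusted p = 3.97e-06). Srf itself fell, to 13.9 ± 3.41 CPM in CCl4 livers, against 26.7 ± 8.71 CPM in oil livers (log2 fold change -0.95 ± 0.22, SE; edgeR adjusted p = 0.00425), although the ranges overlapped. Mrtfa, a coactivator of Srf, had a log2 fold change of 0.17 and did not pass (edgeR adjusted p = 0.502), and Myocd, the smooth muscle coactivator, was too scarce to be tested.

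Of 18 genes that control contraction 6 rose, 2 fell and 10 did not pass (median log2 fold change 0.18), where 20.6% of all tested genes rose and 18.4% fell. Without CCl4 replicate 1 the count was 5 risen and 3 fallen, and without CCl4 replicates 1 and 3 it was 4 risen and 2 fallen. Ednrb, an endothelin receptor, rose 2.04-fold, with 20.2 ± 1.45 CPM in CCl4 livers and 9.90 CPM on average in oil livers (SD, n = 6; edgeR adjusted p = 0.000148). Kcnmb1, the smooth muscle subunit of a calcium-activated potassium channel, had 15 to 23 counts in CCl4 livers and 0 to 9 counts in oil livers. It could pass the filter on low counts only through the CCl4 livers, so its call carries little weight. Agtr1a, the angiotensin receptor, which hepatocytes also express, fell (log2 fold change -0.57 ± 0.13, SE; edgeR adjusted p = 0.00374). Mylk, the kinase of the regulatory light chain, had 44.4 ± 20.7 CPM in CCl4 livers and 72.3 CPM on average in oil livers and did not pass (edgeR adjusted p = 0.0879).

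Of 20 genes that anchor actin or build intermediate filaments 5 rose, 4 fell and 11 did not pass (median log2 fold change -0.03). These shares were near those of all tested genes, of which 20.6% rose and 18.4% fell. Vim, the intermediate filament protein of mesenchymal cells, rose 3.32-fold (edgeR adjusted p = 1.26e-06), Pdlim7, a LIM protein of actin cables, rose 2.62-fold (edgeR adjusted p = 8.08e-06), and Fermt2, an integrin activator, fell (log2 fold change -1.0; edgeR adjusted p = 1.05e-05). This list varied with CCl4 replicate 1 and with length: without that liver 5 rose and 6 fell with a median of -0.43, and with the length slope 9 rose and 4 fell with a median of 0.36. Of 10 non-muscle relatives of the contractile genes 5 rose, 1 fell and 4 did not pass (median 0.45), with Tpm4 up 2.0-fold and Myl12b up 1.53-fold (edgeR adjusted p = 3.63e-05 and 0.000359). Actg1, the cytoplasmic gamma actin, fell (log2 fold change -2.24 ± 0.54, SE; edgeR adjusted p = 0.00462), but at 2.04 CPM in CCl4 livers and 9.69 CPM in oil livers it was far below Actb. It has close copies in the genome that may share its reads, and with the length slope no non-muscle relative fell.

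Markers of the cells that could carry these transcripts moved as follows, where 20.6% of all tested genes rose and 18.4% fell. All 12 tested markers of activated stellate cells, matrix genes and a receptor, rose (median log2 fold change 2.60). Sparc was up 3.97-fold and Col3a1 7.19-fold (edgeR adjusted p = 1.32e-07 and 1.27e-06). The list summed to 758 to 1035 CPM in CCl4 livers, against 130 to 215 CPM in oil livers. Of 11 portal fibroblast markers 10 rose (median 1.30), with Dpt up 4.53-fold and Cd34 up 3.15-fold (edgeR adjusted p = 5.38e-06 and 2.65e-05), or 8 without CCl4 replicate 1, and the list summed to 62.0 to 78.3 CPM in CCl4 livers, against 20.1 to 30.1 CPM in oil livers. Of 10 quiescent stellate markers 4 rose and 1 fell, or 4 and 2 without CCl4 replicate 1 (median 0.27 with all livers), with Hand2 up 1.71-fold and Ecm1 lower (log2 fold change -0.79). Several of these markers are shared between stellate cells, fibroblasts and other cells of the liver. Cthrc1 and Gli1, among the risen stellate and portal markers, and Cldn4 below had so few counts in oil livers that they could pass the filter only through the CCl4 livers.

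Markers of pericytes and vascular smooth muscle, where Myh11 and Cnn1 are normally found, summed to 35.5 to 61.5 CPM in CCl4 livers, against 31.3 to 52.9 CPM in oil livers, so the ranges overlapped. Of the 6 tested of 9 markers, 2 rose (Mcam 1.79-fold and Kcnj8 1.69-fold), 1 fell (Abcc9, log2 fold change -0.57) and 3 did not pass. Here and in the lists below, the shares over all tested genes were 20.6% risen and 18.4% fallen. The median of the 6 markers was 0.35, or 0.15 without CCl4 replicate 1. With the length slope 3 rose and 0 fell, with a median of 0.41. Notch3, the receptor of vascular smooth muscle, was at 4.43 CPM in CCl4 replicate 1, where Myh11 was also highest. The whole list summed to 49.7 CPM in that liver, within the range of the oil livers. The largest parts of that sum were Abcc9 at 19.2 CPM and Mcam at 10.1 CPM, so it follows these genes more than Notch3. No mesothelial marker passed in edgeR, with the lowest unadjusted p, 0.0701, for Nkain4. Without CCl4 replicate 1, 1 of the 8 passed. They summed to 16.7 to 35.1 CPM in CCl4 livers, against 9.32 to 37.7 CPM in oil livers. Of 7 tested bile duct markers 3 rose, among them Epcam at 2.78-fold and Cldn4 at 8.85-fold. Cldn4 could pass the filter on low counts only through the CCl4 livers, so its call carries little weight. Without CCl4 replicate 1, 3 bile duct markers rose and 1 fell. The list summed to 30.2 to 46.1 CPM in CCl4 livers and 30.7 to 49.7 CPM in oil livers. Of 5 hepatocyte markers 1, Apob, fell (log2 fold change -0.69). The part of these cell types in the contractile genes was not tested.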

How the data were processed

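Gene-level RNA-seq counts from whole liver of 12 mice (6 CCl4, 6 corn oil) were used. The authors deposited raw read counts per gene, whole numbers without normalisation, in 12 sample files whose values equalled those of a joint table. A stranded kit for total RNA was used, per the labels' protocols, and the genome build was GRCm38, per the submitters' processing notes. The sources used here do not give the aligner, the counting tool or its use of strand, so overlapping genes and close copies may share reads. Of 36528 gene IDs, 10900 had no count and 31049 took a name from RefSeq for GRCm38.p6.

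All 12 livers entered 1 fit in edgeR 4.0.16 under R 4.3.3, after filterByExpr and TMM scaling. The robust quasi-likelihood F test was adjusted by Benjamini-Hochberg over 16032 genes, with a threshold of 0.05. CPM were TMM scaled, with a prior count of 2 on the log2 scale. The standard error was the log2 fold change divided by the square root of F. Lengths were medians over protein-coding transcripts of GENCODE mouse release 21, and gene positions came from RefSeq. Shares and ratios were compared by exact permutation over 924 arrangements. Totals ran from 43027778 to 70375852 counts, and no pair of replicates agreed within sampling noise (lowest chi-square per gene 53.4). Replicate numbers only name livers.

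The 10 genes, the lists and the tests were chosen with earlier results of these data known. Named genes were the 10 members, their relatives, the 2 called genes of each list with the smallest p in the majority direction and the first in the other, the 5 genes closest to Acta2 and the 3 highest skeletal muscle genes of CCl4 replicate 1. A gene that this rule names is not reported here. Mrtfa, Myocd, Mylk, Notch3, Pcsk7, Alb and Neb were given outside that rule, after their values were seen. The fit was repeated with upper-quartile scaling, DESeq2 size factors, limma-voom (limma 3.58.1), DESeq2 1.42.0, other filters (none, or 50 counts in 6 libraries), thinning, the length slope as a covariate, each liver left out and, added after the data were seen, without CCl4 replicates 1 and 3. The scripts were tested on simulated counts.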

Additional observations from a re-analysis of the deposited data

Results flagged for a closer look

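Within each group of 6 livers, the extreme liver of each of the 10 genes was set against Dixon's 95% limit for the gap to the nearest of the 6 values. Of 30 groups checked (CPM of the 10 genes in both groups, and the 5 family shares), 3 passed it, where chance gives about 1 in 20.

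Tpm2 was at 36.5 CPM in CCl4 replicate 1, with the nearest CCl4 liver at 13.2 CPM, a gap of 0.798 of the range. That liver also held 553 CPM of skeletal muscle transcripts, and without it the log2 fold change of Tpm2 was 0.92 instead of 1.45.

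Tpm2 was at 7.62 CPM in oil replicate 2, with the nearest oil liver at 5.08 CPM, a gap of 0.873 of the range. The skeletal muscle transcripts of that liver, 18.3 CPM, lay among those of the other oil livers.

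Actg2 was at 1.12 CPM in oil replicate 3, with the nearest oil liver at 0.632 CPM, a gap of 0.695 of the range. Without that liver the log2 fold change of Actg2 was 0.67 instead of 0.41, and the edgeR adjusted p was 0.0525 instead of 0.255. The 12 livers had 16 to 84 counts of this gene.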

How the results depend on the processing

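Across 21 alternatives the log2 fold changes of Acta2 (2.45 to 2.76), Tagln (2.47 to 3.02), Myl9 (1.46 to 1.76), Tpm1 (1.51 to 1.69), Cnn2 (0.77 to 0.97) and Tpm2 (0.83 to 1.66) kept their direction and their call. In all 21, DESeq2 and limma-voom included, 6 to 7 genes were called higher and 0 lower. The call changed for Cald1 with upper-quartile scaling (0.35, adjusted p = 0.0223) and for Myh11 with the length slope (0.97, adjusted p = 0.000536), which made 7 called genes in each. The cause was not tested. Actg2 and Cnn1 could not be tested with a filter of 50 counts in 6 libraries. Genes whose groups did not overlap numbered 5 to 6, Tpm2 being added with upper-quartile scaling, without CCl4 replicate 4 and without oil replicate 2. The 3 family shares that passed also did so with counts in place of counts per kb and without any 1 liver. Of the ratios to Myh11, that of Tpm2 ranged from 0.79 to 1.25 leaving out 1 liver, and passed without CCl4 replicate 5 (1.25, adjusted p = 0.0312) or without oil replicate 5 (1.23, adjusted p = 0.0390).

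Depth limits Cnn1 and Actg2, which rest on 9 to 84 counts per liver. No paired analysis was possible because the labels give no number that pairs mice across groups. Length slopes differ between the groups, so an adjustment for them can also move true differences of long genes.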
